A study of Rattus norvegicus with 4 samples.

Results

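Transcripts of receptors for extracellular mediators, other than those of smell, taste and vision, were measured in NR8383 cells, a macrophage line derived from rat lung lavage. The ligands were nucleotides, adenosine, prostanoids, lysophospholipids, platelet-activating factor, leukotrienes, biogenic amines, acetylcholine, glutamate, formyl peptides, fatty acids and the ligands of the numbered Gpr genes. Members were chosen by a rule on the gene symbol that uses no measured value, though earlier results of these data were known. The rule named 182 symbols in RefSeq, and 154 of them, out of 16581 named genes, were matched to at least 1 of 198 probes. The other 28 symbols, among them Adora3, Hrh2, Lpar5, Gpr55 and Gpr171, were not analysed here.

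The rule reached past G protein-coupled receptors. It took in 9 ion channel subunits (7 P2rx genes, gated by ATP, and Htr3a and Htr3b, gated by serotonin) and Gpr15lg, the secreted ligand of Gpr15. RNA was measured in 4 samples of 1 group, cells after 20 passages, seeded for 48 h and incubated for 4 h with water as the control treatment. The label adds the tag ALI, which it does not spell out, and the design text calls the samples biological replicates. No other condition was available for comparison here, so the data show which receptor transcripts were present and how they varied between replicates.

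G protein-coupled receptors cross the membrane several times and act through heterotrimeric G proteins. Receptors coupled to Gs raise cyclic AMP, those coupled to Gi lower it, and those coupled to Gq activate phospholipase C and release calcium. In macrophages, nucleotides released by damaged cells and lipid mediators made from arachidonic acid are known to act through such receptors on migration, phagocytosis and cytokine output. P2X receptors are channels that open on binding ATP and pass cations directly.

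Detection here means that 1 or more probes of the gene carried the scanner software's flag for a signal well above background on 4 of 4 arrays. Levels are the log2 processed signal minus that of the 75th percentile of the array, so 0 marks that percentile and a negative level lies under it. The 95th percentile of the negative control spots lay between -7.74 and -7.19 on this scale. Probes differ in affinity, so a level was followed across arrays for 1 probe and was not ranked between genes.

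The share of gene spots with that flag was 49.2% to 50.3% per array, and Pearson's r between pairs of arrays was 0.990 to 0.994 across 17324 detected probes, which are not independent replicates. All 10 macrophage markers of the list used here, among them Csf1r, Spi1, Itgam and Cd68, were detected. Of the alveolar macrophage markers, Pparg, Fabp4 and Siglec5 were detected and Marco and Car4 were not. Of 34 markers of mast cells, neutrophils, neurons, epithelium, endothelium, T cells and B cells, 5 were detected. They were 3 of 4 for endothelium (Pecam1, Cdh5 and Vwf), 1 of 4 for T cells (Lck) and 1 of 3 for B cells (Pax5).

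Of the 154 members, 46 (29.9%) were detected, 10 were well above background on 1 to 3 arrays and 98 on none. Among all named genes the detected share was 51.0%, and 42.6% were above background on no array. The detected share differed between ligand classes. It was 10 of 19 for purinergic receptors, 8 of 23 for lipid mediator receptors, 3 of 5 for fatty acid and hydroxy acid receptors, 4 of 36 for receptors of amines and acetylcholine, 2 of 8 for metabotropic glutamate receptors, 0 of 2 for formyl peptide receptors and 19 of 61 for numbered Gpr genes. The classes follow the gene symbol, so P2ry10 and P2ry10b, whose product binds lysophosphatidylserine, count as purinergic. No set test was made on these counts.

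**Figure D1:**
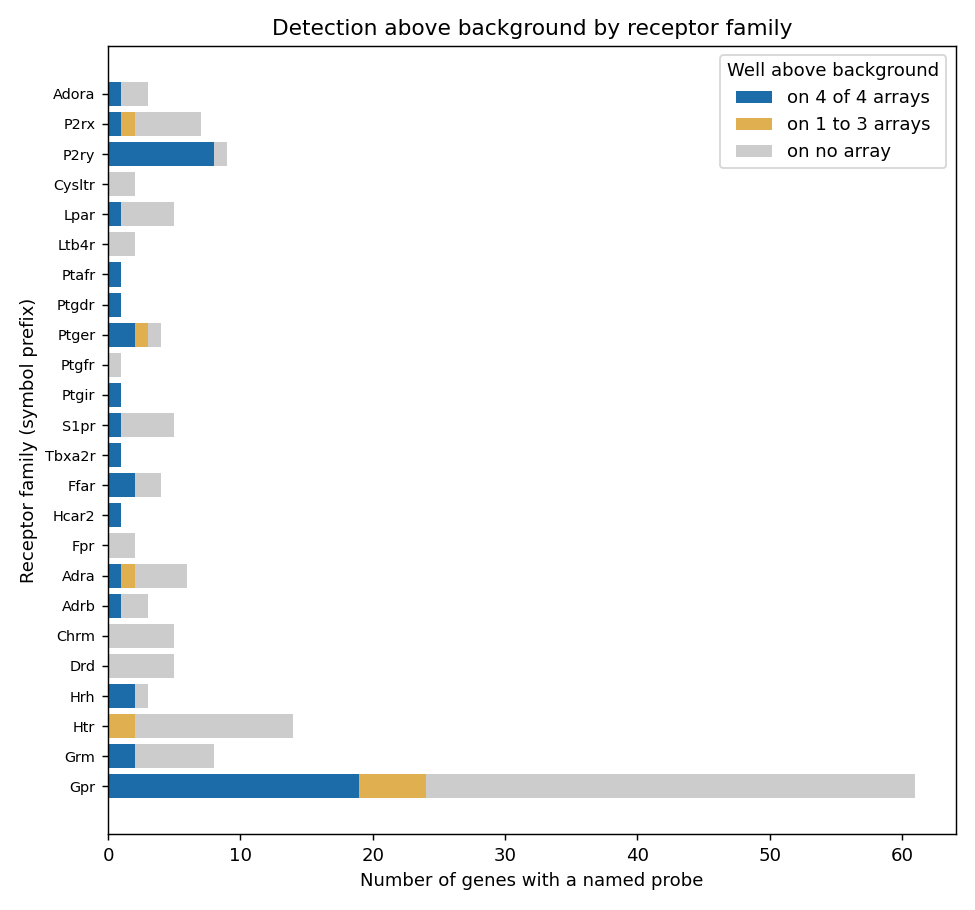
Number of genes with a named probe in each receptor family (horizontal axis), split by the number of arrays on which at least 1 probe was well above background. The P2ry bar is filled to 8 of 9 genes, while the Chrm, Drd, Cysltr, Ltb4r and Fpr bars hold no detected gene.

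The upstream sequences of the detected members are shown first, since Spi1, which encodes the macrophage factor PU.1, was itself detected (1.14 ± 0.10, SD, n = 4 arrays). RefSeq promoters of the build GRCr8 were matched for 39 of the 46 detected members and 73 of the 98 members with no signal, and the 250 bases before the annotated start were searched on both strands. The PU.1-type site GAGGAAGT occurred in 4 of the 39 (10.3%), in 1 of the 73 (P2ry4; 1.37%), in 2.38% of 7093 detected named genes and in 2.04% of 27457 promoters. These are counts of letters, not of bound sites, and the motif was chosen with the detection calls known. Of the 4, P2ry10 and P2ry10b are related genes, both on chrX, and Ptger4 was called by 1 of 2 probes. A part of PU.1 in their levels was not tested. The sequences are printed in the direction of the gene, with the motif or its reverse complement ACTTCCTC in capitals. They lie at chr1:245285759-245286008 (plus strand) for Ffar4, chrX:76265633-76265882 (plus strand) for P2ry10, chrX:76328839-76329088 (plus strand) for P2ry10b and chr2:56073523-56073772 (minus strand) for Ptger4.
Ffar4: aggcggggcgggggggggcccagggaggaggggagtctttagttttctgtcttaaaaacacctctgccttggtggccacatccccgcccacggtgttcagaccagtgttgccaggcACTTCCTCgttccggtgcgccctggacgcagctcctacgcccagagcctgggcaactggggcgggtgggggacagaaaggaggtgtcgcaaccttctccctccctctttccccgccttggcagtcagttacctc
P2ry10: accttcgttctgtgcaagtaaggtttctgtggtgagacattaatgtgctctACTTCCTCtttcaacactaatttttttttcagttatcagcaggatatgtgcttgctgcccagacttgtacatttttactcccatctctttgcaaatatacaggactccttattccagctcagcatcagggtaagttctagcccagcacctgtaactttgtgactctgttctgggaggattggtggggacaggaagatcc
P2ry10b: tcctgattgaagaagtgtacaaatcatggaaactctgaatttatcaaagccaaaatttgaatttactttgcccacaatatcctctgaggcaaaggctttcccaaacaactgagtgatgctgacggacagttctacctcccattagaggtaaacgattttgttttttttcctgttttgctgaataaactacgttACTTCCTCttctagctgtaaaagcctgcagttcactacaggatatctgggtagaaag
Ptger4: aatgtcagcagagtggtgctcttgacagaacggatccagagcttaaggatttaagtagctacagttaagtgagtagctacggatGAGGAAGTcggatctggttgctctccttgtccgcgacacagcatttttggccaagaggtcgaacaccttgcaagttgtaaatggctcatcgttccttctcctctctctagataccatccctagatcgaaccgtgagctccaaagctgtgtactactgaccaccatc
The first base of the match lay 134 bases before the start in Ffar4, 199 in P2ry10, 57 in P2ry10b and 166 in Ptger4.

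In all, 11 motifs were searched, and some overlap. Each is given beside its share of all promoters and of the detected named genes. AGGAAGT, which lies within the first motif, was in 7 of 39 promoters of detected members (17.9%), adding Ffar2, Gpr84 and Hrh4, and in 2 of 73, with 6.99% of all promoters and 8.08% of detected named genes. The shorter GAGGAA was in 12 of 39 (30.8%) and 20 of 73 (27.4%), with 23.2% in both backgrounds. The GC box GGGCGG was in 17 of 39 (43.6%) and 27 of 73 (37.0%), above the 32.4% of all promoters and below the 58.4% of detected named genes. TATAAA was in 4 of 39 (Gpr15lg, Gpr18, Gpr65 and Hrh4; 10.3%) and 2 of 73 (2.74%), with 13.1% of all promoters and 6.80% of detected named genes. TGACGTA was in 1 of 39 (Gpr89b) and 0 of 73, with 1.73% and 2.65% in these backgrounds. TGACGTCA (1.70% and 3.09%) and TGAGTCA (3.98% and 3.12%) were each in 0 of 39 and 1 of 73. TCACGTGA (0.743% and 1.61%), TTGCGCAA (0.164% and 0.254%) and the NF-kB site (0.0765% and 0.169%) were in none of either group.

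Genes with a P2ry symbol were the most fully detected family among those with more than 3 members, with 8 of 9 genes detected. The exception was P2ry4, a receptor for UTP, with a level of -7.49. The 8 include the lysophosphatidylserine receptor genes P2ry10 and P2ry10b, described below. P2ry2, which binds ATP and UTP and couples to Gq, read 1.52, 1.17, 1.1 and 1.58 on replicates 1 to 4 (1.34 ± 0.24). The UDP receptor P2ry6 read -0.20, -0.47, -0.21 and -0.12 (-0.25 ± 0.15). For the ADP receptor P2ry1 the values were -1.94, -2.00, -1.71 and -1.71 (-1.84 ± 0.15). These 3 Gq-coupled receptors thus stayed within 0.48 on the log2 scale between their highest and lowest arrays.

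All 3 P2Y receptors coupled to Gi were detected. P2ry12, an ADP receptor known from platelets and microglia, read -2.70, -2.92, -2.44 and -2.61 (-2.67 ± 0.20). P2ry14, a receptor for UDP-glucose, read -2.57, -2.17, -2.28 and -2.50 (-2.38 ± 0.19). P2ry13, another ADP receptor, was nearer the background, at -5.16, -4.44, -4.82 and -4.31 (-4.68 ± 0.38). Its call came from the probe for a predicted transcript. The probe for the curated transcript, at -6.14 ± 0.30, was above background on no array.

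P2ry10 and P2ry10b, related genes whose product binds lysophosphatidylserine, were both detected. P2ry10b read -1.0, -0.80, -0.97 and -0.98 (-0.94 ± 0.09), and P2ry10 read -3.52, -3.28, -3.06 and -3.48 (-3.33 ± 0.21). Whether a probe of one also bound RNA of the other was not tested.

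Of 3 adenosine receptors, only Adora2b, a Gs-coupled receptor of low affinity, was detected, at -2.57, -2.44, -2.33 and -2.60 (-2.49 ± 0.13). Adora1 (-6.15) and Adora2a (-6.41), each with 1 probe, were above background on no array. Adora1 was called with 2 other definitions of detection, the positive and significant flag and the negative control threshold.

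P2rx4 was the detected member of the 7 P2X channel genes, at -3.06, -2.67, -2.99 and -2.82 (-2.88 ± 0.18). P2rx3, a channel known from sensory neurons, was above background on 2 arrays by 1 of its 3 probes. P2rx7, the channel through which ATP is known to activate the NLRP3 inflammasome in macrophages, was above background on no array. Its single probe read -7.79, -7.05, -8.24 and -7.84, near the level of the negative controls. The reading is that of 1 probe, and other P2rx7 transcripts were not analysed here.

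Enzymes that make and remove nucleotides and adenosine formed a list of 12 genes, of which 7 were detected. Among them were the ectonucleotidase Entpd1 (-3.56 ± 0.15), which hydrolyses ATP and ADP, and Nt5e, which forms adenosine from AMP (-1.59 ± 0.22). Enpp3 (-2.57 ± 0.16), the adenosine deaminase gene Ada (-2.59 ± 0.18), Adk, Slc29a1 and Slc29a2 were detected as well. Entpd2, Entpd3, Entpd8, Enpp1 and the ATP release channel Panx1 were not.

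Among the prostanoid receptors, 5 of 8 were detected, and these included all 4 that couple to Gs. Ptger2, the EP2 receptor for prostaglandin E2, read -1.0, -0.98, -1.12 and -2.24 (-1.33 ± 0.61), so replicate 4 stood apart from the other 3 arrays. Ptger4, the EP4 receptor, read -4.81, -3.98, -3.37 and -3.48 (-3.91 ± 0.65), with replicate 1 lowest. The prostacyclin receptor Ptgir read -2.54, -2.74, -3.87 and -3.36 (-3.13 ± 0.61). On these scaled levels all 3 spanned more than 2-fold between arrays, each with a different lowest array.

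The prostaglandin D2 receptor Ptgdr completed the Gs-coupled group, at -4.12, -3.40, -4.21 and -3.98 (-3.93 ± 0.37). Tbxa2r, the Gq-coupled thromboxane receptor, had the smallest SD of all 46 detected members, at -3.30, -3.40, -3.27 and -3.30 (-3.32 ± 0.06). Ptger1 was above background on 2 arrays by its brighter probe, and Ptger3 and Ptgfr were above it on none, with 3 and 2 probes. Ptger4 resembled P2ry13 in that its call came from the probe for a predicted transcript, while the probe for the curated one was at -7.84 ± 0.21.

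Ptafr, the receptor for platelet-activating factor, was detected at -0.21, -0.03, -0.21 and -0.40 (-0.21 ± 0.15). None of the 4 leukotriene receptors was. Ltb4r, Ltb4r2, Cysltr1 and Cysltr2 had 1 probe each, with levels of -7.53, -7.27, -7.56 and -7.52.

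The turnover genes of these lipids were detected to 9 of 17. Pla2g4a (-2.07 ± 0.09), which releases arachidonic acid, was detected. Alox5 and Lta4h, enzymes of leukotriene B4 synthesis, were among them, but the lipoxygenase partner Alox5ap was not. Of the prostanoid enzymes, Ptgs1 (0.03 ± 0.07), Ptges2 (-1.83 ± 0.15), Ptges3 (3.25 ± 0.04) and the thromboxane synthase gene Tbxas1 were detected, and Ptgs2, Ptges, Hpgds, Ptgds and Ptgis were not. The platelet-activating factor genes Lpcat2, on the side of synthesis, and Pla2g7, on the side of breakdown, were both detected.

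Of 10 lysophospholipid receptors with an S1pr or Lpar symbol, 2 were detected. The lysophosphatidylserine receptor genes P2ry10, P2ry10b and Gpr34 are not in this count. S1pr2, a receptor for sphingosine 1-phosphate, read -1.44, -1.75, -2.02 and -1.75 (-1.74 ± 0.23), and S1pr1, S1pr3, S1pr4 and S1pr5 were above background on no array. Lpar6, a receptor for lysophosphatidic acid, read -2.65, -2.64, -2.76 and -2.40 (-2.61 ± 0.15), and Lpar1, Lpar2, Lpar3 and Lpar4 were not detected. Of 8 turnover genes, Sphk2, Sgpl1 and Plpp1 were detected, and Sphk1 and the lysophosphatidic acid-forming enzyme gene Enpp2 were not.

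Receptors for metabolites were detected in 3 of 5 cases. Ffar4, which binds long-chain fatty acids, read 1.60, 1.76, 1.87 and 1.79 (1.75 ± 0.11). Ffar2, which binds short-chain fatty acids, read -3.12, -2.67, -2.38 and -2.69 (-2.71 ± 0.31). Hcar2, which binds beta-hydroxybutyrate and niacin, read -3.02, -2.37, -2.96 and -2.91 (-2.81 ± 0.30), with replicate 2 above the other 3. Ffar1 and Ffar3 were not detected.

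The formyl peptide receptors Fpr1 (-7.53) and Fpr2l1 (-7.73) were above background on no array. Both had 1 probe, and Fpr2 and Fpr3 had no named probe.

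**Figure D2:**
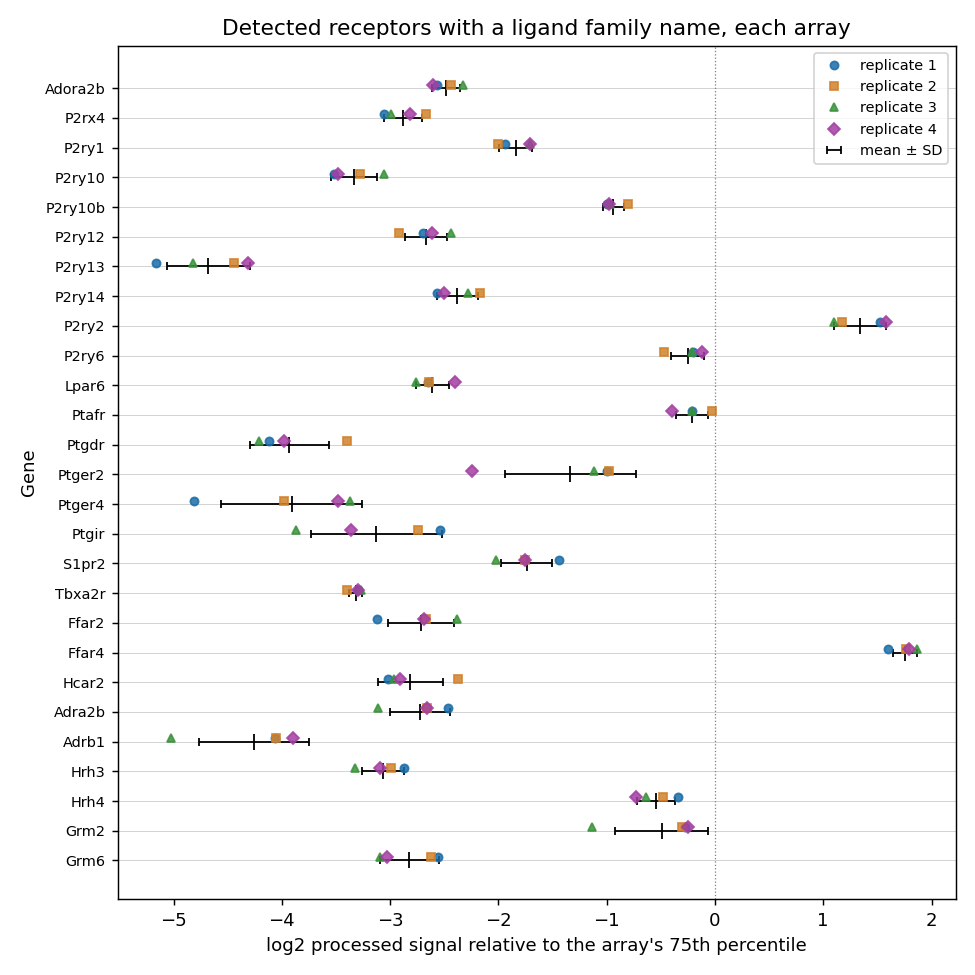
Level of the 27 detected members with a ligand family name on each array (coloured symbols), with the mean and SD over 4 arrays (black); the horizontal axis is the log2 processed signal relative to the array's 75th percentile. The symbols of Tbxa2r fall together within 0.13, while Ptger2 on replicate 4 and Grm2 and Adrb1 on replicate 3 lie left of the other arrays; rows of different genes rest on different probes and are not to be ranked.

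Among the 36 receptors for amines and acetylcholine, 4 were detected. The histamine receptor Hrh4, known from immune cells, read -0.34, -0.48, -0.64 and -0.73 (-0.55 ± 0.18). Hrh3, a histamine receptor known from neurons, read -2.87, -2.99, -3.32 and -3.09 (-3.07 ± 0.19) by 1 of 3 probes, the other 2 being above background on no array. Hrh1 was not detected. The histamine-forming enzyme gene Hdc was detected at -4.63 ± 0.36, by 1 of 2 probes. The mast cell and basophil markers Cpa3, Ms4a2, Tpsb2, Cma1, Kit and Mcpt8 were above background on no array.

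The other 2 were adrenergic receptors. Adrb1, a Gs-coupled receptor for noradrenaline and adrenaline, read -4.06, -4.05, -5.02 and -3.90 (-4.26 ± 0.51), lowest on replicate 3. Adra2b, which couples to Gi, read -2.47, -2.66, -3.11 and -2.66 (-2.72 ± 0.27) by 1 of 2 probes. Adra1a passed on replicate 3 alone, where 1 of its 3 probes read -3.79 against -7.75 to -7.21 on the other arrays. Of the 48 spots within 3 rows and 3 columns of that spot, 6 also stood more than 1.5 above the median of their other arrays on replicate 3, by up to 3.82; the part of this in the Adra1a reading was not tested.

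No muscarinic receptor (0 of 5) and no dopamine receptor (0 of 5) was detected. Of 14 serotonin receptor genes none was detected, Htr6 was above background on 3 arrays (-4.18, -4.43, -5.24 and -5.53) and Htr2c on 2. Of the 16 genes for amine turnover, 5 were detected, Hdc, Th, Maoa and Slc18a2 among them. In a bulk culture, a weak signal from few cells and a low level in all cells cannot be told apart.

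Both detected metabotropic glutamate receptors were called by 1 of 2 probes. Grm2 read -0.28, -0.30, -1.14 and -0.25 (-0.49 ± 0.43), with replicate 3 below the others, and its second probe was at -7.56 ± 0.74. Grm6, known from retinal bipolar cells, read -2.56, -2.62, -3.09 and -3.03 (-2.82 ± 0.27), and its second probe was at -6.97 ± 0.48. Grm3, Grm4, Grm5, Grm7 and Grm8 were not detected. Of 8 neuronal markers none was detected, with Syt1 above background on 1 array and Snap25, Rbfox3, Tubb3, Map2, Nefl, Stmn2 and Syn1 on none.

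Several of the 19 detected Gpr genes code for proteins of internal membranes and not for surface receptors. Among them were Gpr107 (1.18 ± 0.07), Gpr108 (2.63 ± 0.06) and Gpr89b (-0.31 ± 0.09), which are placed at the Golgi apparatus, and Gpr137 (1.85 ± 0.10) and Gpr155 (-0.85 ± 0.11), which are placed at lysosomes. Gpr137 was printed in 10 spots per array. The SD among its single spots within an array was 0.087 to 0.13. Between arrays, where each value is a mean over spots, the SD was 0.10. A mean over spots varies less than a single spot, so these SDs are not directly comparable.

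Of the receptors that respond to acid outside the cell, Gpr65 was detected, at -4.34, -4.19, -4.37 and -4.47 (-4.34 ± 0.11). Gpr132 was above background on 2 arrays and spread widely, at -4.44, -5.54, -5.41 and -6.47. Gpr4, known from endothelium, was not detected, while 3 of 4 endothelial markers were. Gpr132 thus spanned 2.03 between its highest and lowest array, and Gpr65 varied little.

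Further receptors of immune cells were detected. Gpr18 read 0.83, 0.80, 0.61 and 0.89 (0.78 ± 0.12). Gpr84, a receptor for medium-chain fatty acids that is known to rise on macrophage activation, read -3.38, -3.60, -3.18 and -3.47 (-3.41 ± 0.18). Gpr34, a lysophosphatidylserine receptor of myeloid cells, was above background on 3 arrays (-5.31, -5.71, -5.33 and -4.89). Gpr183, the receptor for oxysterols, and Gpr35 were above background on no array, by 1 probe each, at -7.58 and -7.72.

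Gpr3, which raises cyclic AMP without an added ligand, read -1.33, -1.55, -1.96 and -1.46 (-1.58 ± 0.27), and its relatives Gpr6 and Gpr12 were not detected. Gpr17, related to both P2Y and leukotriene receptors, was close to the background at -5.03 ± 0.16. The orphan receptor Gpr63 had the widest spread of all detected members, at -1.50, -1.72, -3.29 and -1.57 (-2.02 ± 0.85). Of the 48 spots around its spot on replicate 3, 1 also stood more than 1.5 below the median of its other arrays. The other detected orphans were Gpr19 (-0.48 ± 0.16), Gpr85 (-3.43 ± 0.22), Gpr146 (-3.74 ± 0.24), Gpr157 (-0.43 ± 0.22), Gpr160 (-4.99 ± 0.29) and Gpr180 (0.12 ± 0.18). Gpr15lg, the ligand gene, was at -5.01 ± 0.12, and Gpr15 was not detected. Gpr162 was above background on 1 array.

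**Figure D3:**
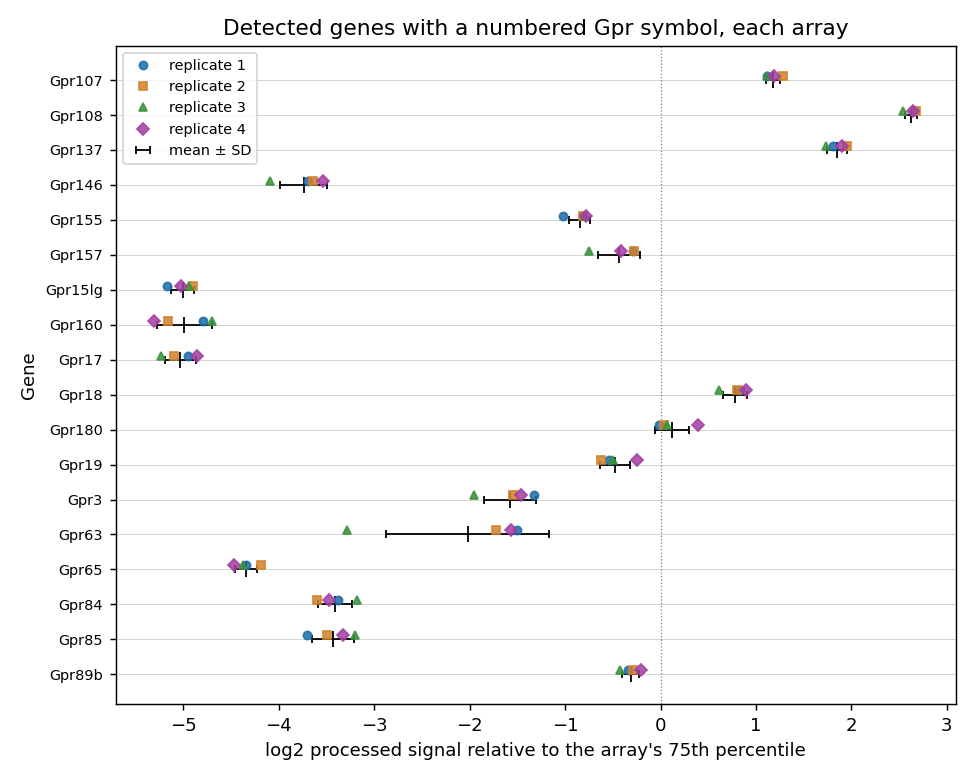
Level of the detected genes with a numbered Gpr symbol that the text names, on each array (coloured symbols), with the mean and SD over 4 arrays (black), on the log2 scale relative to the array's 75th percentile. Gpr63 on replicate 3 (-3.29) lies apart from its other arrays (-1.72 to -1.50), whereas Gpr107 and Gpr108 hardly spread.

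Part of a call could rest on the probe. Of the 46 detected members, 34 had 1 named probe and 12 had more. In 3 of these 12 (P2ry1, Gpr108 and Gpr155) every probe was above background on 4 arrays, and in 9, among them Adra2b, Gpr85, Grm2, Grm6, Hrh3, P2ry6, P2ry13 and Ptger4, only 1 was. These 9 were 23.7% of the 38 members with several probes, and among all named genes with several probes the share was 19.7%. The gap between probes of a gene could be wide even where all were detected, as for Gpr108 at 2.63 and -3.06.

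**Figure D4:**
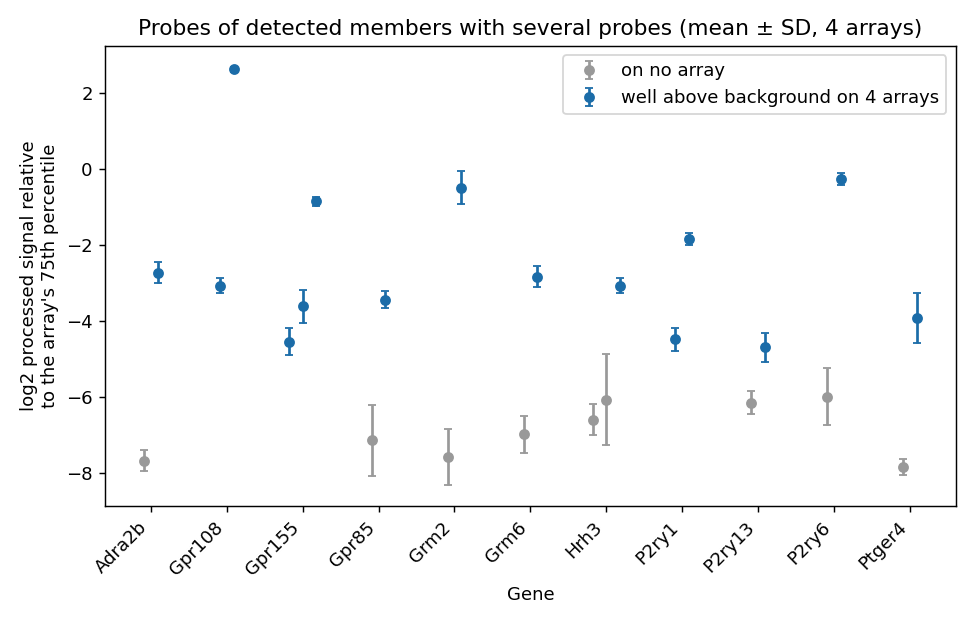
Mean level and SD over 4 arrays of every named probe of the detected members with several probes that the text names, on the log2 scale relative to the array's 75th percentile; blue probes were well above background on 4 arrays and grey ones on none. Grm2 has a probe at -0.49 and another at -7.56, while all probes of P2ry1, Gpr108 and Gpr155 are blue.

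Counts of signalling partners were read beside the receptors, and 72 of 134 genes (53.7%) over all 9 pathway lists were detected, against 51.0% of all named genes. Of 13 G protein alpha subunits, 7 were detected. These covered the Gi members Gnai2 (6.60 ± 0.17) and Gnai3 (2.19 ± 0.12), the Gq members Gnaq (-4.16 ± 0.43), Gna11 (-4.21 ± 0.22) and Gna15, and the Gs gene Gnas. Gna12 was detected too, and Gna13 was above background on 3 arrays. The Gi member Gnai1 (-7.50) and the Gq member Gna14 (-7.82) were not detected. Neither were Gnao1, Gnal and Gnaz, known mainly from neurons and platelets. Of 14 beta and gamma subunits, 8 were detected, with Gnb1, Gnb2, Gng5, Gng10 and Gng12 among them.

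Of the 8 genes for receptor kinases and arrestins, which switch receptors off, 7 were detected. They were Grk2 (0.76 ± 0.09), Grk3 (-4.29 ± 0.18), Grk4 (-4.55 ± 0.52), Grk5 (-3.06 ± 0.24), Grk6, Arrb1 and Arrb2, and Grk1, known from the retina, was not detected. Of 15 RGS genes, which shorten G protein signals, 5 were detected, namely Rgs1 (-0.48 ± 0.34), Rgs2 (1.54 ± 0.22), Rgs10 (-0.31 ± 0.11), Rgs14 (-2.12 ± 0.06) and Rgs19. Of 31 effector genes, 21 were detected, among them the adenylyl cyclases Adcy2 (-4.10 ± 0.38), Adcy4 (-3.06 ± 0.26), Adcy6 (-0.39 ± 0.16) and Adcy7 (-3.96 ± 0.06), the protein kinase A subunit Prkaca, the cyclic AMP phosphodiesterases Pde4a, Pde4b and Pde4d, and the phospholipase genes Plcb1, Plcb2, Plcb3 and Plcb4.

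The median SD between arrays was 0.19 for the 46 detected members and 0.14 over 8455 tested genes. Among the 3015 tested genes with levels in the middle range of the members (-3.33 to -0.44), the median SD was 0.16. The median level was -2.43 for the detected members and -0.50 for all tested genes, so shares over all tested genes are not matched for level. In 5 of the 46 (10.9%) the highest array exceeded the lowest by more than 2-fold, as it did in 3.26% of all tested genes. The 5 were Gpr63, Ptger4, Ptgir, Ptger2 and Adrb1. Replicate 3 was the lowest array in Gpr63, Ptgir and Adrb1, and without it the count was 2 (Ptger2 and Ptger4). With normexp background correction, which here added an offset of 50 to every corrected intensity, the count was also 2. With quantile normalization it was 4, without Adrb1. Without scaling it was 5, but not for the same genes. Unscaled intensities ran from 38.2 to 56.2 for Adrb1 and from 81.1 to 151 for Ptgir, under 2-fold. Those of Ffar2 (101 to 238) and Gpr160 (21.0 to 47.6) spanned more than 2-fold. Over all 46, the lowest array was replicate 1 in 14, replicate 2 in 6, replicate 3 in 20 and replicate 4 in 6, a pattern looked at after the values were seen. Among all tested genes the shares were 24.5%, 17.4%, 36.7% and 21.3%. By Dixon's ratio at the 95% level, a single array stood apart in 6 of the 46 (13%) and in 6.20% of all tested genes.

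None of the 46 was more variable than other genes of its level in the limma test of the residual variance, with adjustment over all 8455 tested genes (0.237% of which passed at 0.05). An unadjusted p under 0.05 was reached by 5 of the 46 members, a larger share than the 6.29% of all tested genes. The fit without a trend also called 0 members after adjustment. The smallest adjusted p was that of Gpr63 (adjusted p = 0.065, limma). Gpr63 passed with normexp correction (adjusted p = 0.014), without replicate 1 (0.014), without replicate 2 (0.0022) and with no filter on dim probes (0.0019), and its adjusted p was 0.99 without replicate 3; it ranged from 0.0019 to 0.99 over the alternatives. Ptger2 (adjusted p = 0.21, limma; range over the alternatives 0.025 to 0.997) passed without replicate 2 (0.032) and with no filter on dim probes (0.025). Arrays number 4, which limits the precision of each SD.

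**Figure D5:**
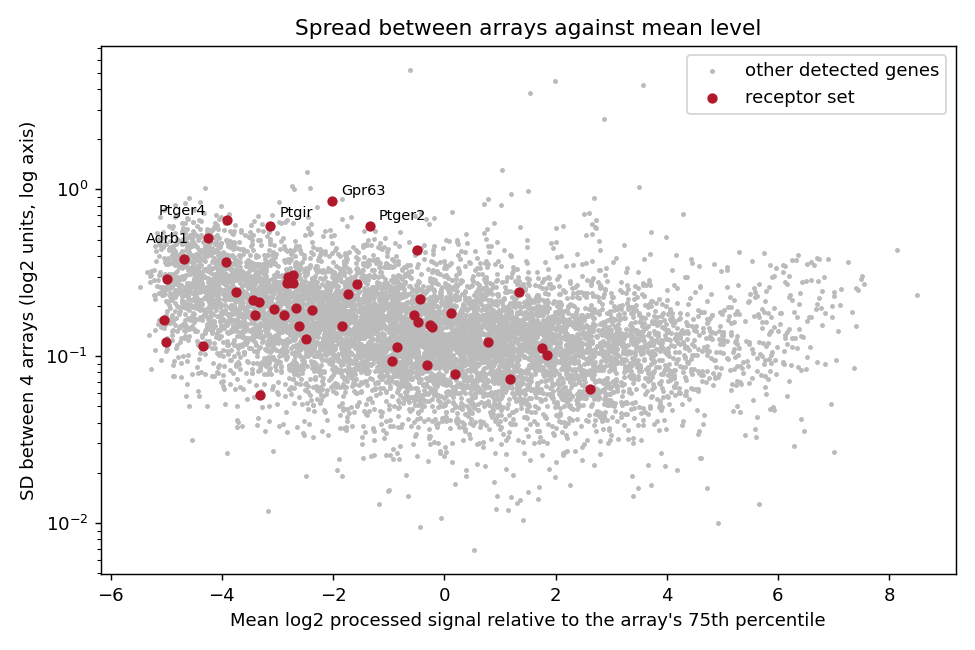
SD between 4 arrays in log2 units (vertical, log axis) against mean log2 level relative to the array's 75th percentile (horizontal) for all tested genes, with the detected members in red and those spanning more than 2-fold named. Most red points lie within the grey cloud, and Gpr63, at an SD of 0.85, lies at its upper edge.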

How the data were processed

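Cy3-labelled cRNA from 100 ng RNA per sample was hybridised to 1 one-colour Agilent array each, per the labels' protocols. The authors deposited spot intensities on a linear scale from Agilent Feature Extraction 11.0.1.1 (processed signal, median signal and local background), with other columns of 0 or 1 flags, per the file headers; those intensities came unscaled between arrays. All 4 arrays lay on 1 slide with 1 scan date.

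Accessions were matched without version to RefSeq (GRCr8), which named 21109 of 45598 probes (46.3%). The array header gives the build rn4, so no array coordinates are given. Control spots and outlier-flagged spots (1.11% to 1.45%) were left out, spots of a probe were averaged on the log2 scale, and the array's log2 75th percentile was subtracted. A probe counted as above background when more than 50% of its spots did. A gene's level was that of its probe with the highest mean. Spread was tested with limma 3.58.1 in R 4.3.3 (intercept only, trend, robust, Benjamini-Hochberg adjustment at 0.05), after a test of the script on simulated data. Python 3.11.15, numpy 2.4.6, pandas 2.3.3 and matplotlib 3.10.9 were used.

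Every member detected on 4 arrays is named with values and every partly detected one with its arrays, except a few genes not reported here, others by family, and up to 4 detected genes per pathway list, in list order, with values. The members, lists and subgroups were chosen with earlier results of these data known. Alternatives are in the closing section. The p-values measure only the spread between these 4 samples.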

Additional observations from a re-analysis of the deposited data

Results flagged for a closer look

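In 6 of the 46 detected members (13%), a single array lay far from the other 3: the gap to its nearest neighbour, divided by the range, exceeded Dixon's critical value at the 95% level. Among all 8455 tested genes the share was 6.20%, and chance flags about 1 in 20 groups. Genes on the same arrays are not independent. For Grm2 (ratio 0.944), Gpr63 (0.874) and Adrb1 (0.856) that array was replicate 3, which was the lowest. Ptger2 (0.892) was low on replicate 4, Gpr155 (0.889) was low on replicate 1, by 0.23 from the median of the others, and Hcar2 (0.830) was high on replicate 2. Adra1a, above background on replicate 3 alone, also passed (0.865), but it was examined only because of that same high array, so the ratio is no separate evidence.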

How the results depend on the processing

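The 46 detected members were all kept under 9 of the 10 alternatives of detection. Where fewer arrays were required or a replicate was left out, this followed from the definition and is no separate evidence. The positive and significant flag and the negative control threshold were looser definitions, so members kept under them are no separate evidence either. With all probes of a gene required, a stricter setting, 37 were kept. The count was 61 where the flag for a positive and significant signal was used and 61 against the negative control threshold, and the share of all named genes was 60.4% and 60.5%, and 46 to 47 with a replicate left out. Without scaling the median SD was 0.28, and it ranged from 0.14 to 0.21 with a replicate left out. The number of members over 2-fold was 2 with normexp correction and 51 of 154 with no filter on dim probes, and 2 to 5 with a replicate left out. The number of hypervariable members was 1 with normexp correction (Gpr63) and 2 with no filter (Gpr63 and Ptger2), and 0 to 2 with a replicate left out; fewer arrays and a changed set of tested genes are part of those settings. Normexp correction moved 46 of 56 levels by at least 1 SD, 41 of them upward, and the mean over probes lowered 15. Signal over background limits members near the detection limit, such as Gpr160, whose lowest array lay 1.88 (log2) above the negative control threshold. No paired analysis was possible because the series holds 1 group.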

Other observations

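Counted after the values had been seen, 20 of the 46 detected members (43.5%) had their lowest level on replicate 3, and so did 36.7% of all tested genes. Replicate 3 had the highest 75th percentile, an intensity of 1237, against 831 to 932 on the other arrays. That percentile was subtracted from the levels of its array, and its part in these readings was not tested. Of the 98 members above background on no array, 78 had 1 probe, and their levels ran from -7.91 to -5.66 with a median of -7.52. Of these 98, Adora1, Gpr182, Htr2b and Lpar2 were detected under both looser definitions, the flag for a positive and significant signal and the negative control threshold. Hrh3 and Gpr15lg were printed in 10 spots per array, like Gpr137. Their SD among spots within an array was 0.22 to 0.27 and 0.22 to 0.39, and the SD between array means was 0.19 and 0.12.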
